A study of Homo sapiens with 16 samples.

Results

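CASP8, FADD, TRAF2, TRAF6 and TNFAIP3 code for proteins that carry signals from death receptors, tumor necrosis factor (TNF) receptors and Toll-like receptors. Each was followed through the Gene Ontology biological process terms that the authors listed as enriched for the MDA231 breast cancer line. The 5 genes are among the 2646 genes named in that table and the 2676 named in the tables of both lines. They were chosen by the number of the 314 MDA231 terms that name them, so the counts of terms below describe the choice and were given no test. At least 1 of the 5 was named in 48 of the 314 terms, and 2 or more stood together in 18, the shared terms.

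The series sampled brain metastases by Flura-seq, in which RNA newly made in cells able to use 5-fluorocytosine takes up a fluorinated base and is pulled down with an antibody. MDA231 is a triple-negative and HCC1954 an ERBB2-positive breast cancer line. The 16 libraries are 4 immunoprecipitated (IP) and 4 input libraries of MDA231, and likewise 4 IP and 4 input libraries of HCC1954. In all 4 groups a brain-metastatic derivative of the line had grown in mouse brain for 30 days, and 250 mg/kg 5-fluorocytosine was given 12 hours before harvest. Nothing in the sources used here states the strain, sex or age of the mice or how many made up a library. Only tables of enriched terms were analysed, so no level per library, depth or replicate error stands behind any value. The sources used here do not say how a gene entered a list, and no value says whether it was higher or lower in IP than in input RNA. The genes are therefore called listed, with no direction.

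Death receptors such as FAS and the TRAIL receptors carry a death domain inside the cell. Once bound by ligand they gather the adaptor FADD, which in turn gathers the protease caspase-8 into the death-inducing signaling complex. TNF receptors and Toll-like receptors use TRAF adaptors, several of which attach ubiquitin chains, to activate NF-kappaB and JNK kinases, while A20, the product of TNFAIP3, edits those chains and holds NF-kappaB back.

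The apoptotic arm of the pathway was represented by CASP8, the initiator caspase of the extrinsic route, and FADD, its adaptor. CASP8 (ENSG00000064012; GRCh38 chromosome 2, 201233443 to 201287711, plus strand) was named in 16 MDA231 terms, or 5.10% of the table. FADD (ENSG00000168040; chromosome 11, 70203163 to 70207390, plus strand) was also named in 16. They stood together in 12 terms, out of 20 that named either. No other pair among the 3499335 pairs of named genes stood together in as many terms. Both genes were chosen from this table and some of the 12 terms are nested, so the rank is a description and was not tested. The adaptor TRADD made the only other pairs with 10 or more terms in common, at 10 with CASP8 and 10 with FADD. CASP8 was in 15 of the 18 shared terms and was the sole gene of the 5 in 1 term, while FADD was in 12 shared terms and alone in 4.

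TRAF2, TRAF6 and TNFAIP3 code for proteins of the signalling and ubiquitin arm. By its terms TRAF2 stood nearer the apoptotic arm, with 8 cell death terms against 2 ubiquitin terms. TRAF2, the adaptor of TNF receptors (ENSG00000127191; GRCh38 chromosome 9, 136881912 to 136926607, plus strand), was named in 15 terms, of which 10 were shared. TRAF6, the ubiquitin ligase of Toll-like and interleukin-1 receptors (ENSG00000175104; chromosome 11, 36487027 to 36510272, minus strand), was named in 14, of which 5 were shared. It lies 33.7 Mb from FADD. TNFAIP3 (ENSG00000118503; chromosome 6, 137867188 to 137883312, plus strand) was named in 16, of which 5 were shared. TRAF6 and TNFAIP3 thus stood mostly apart from the others, in 9 and 11 terms without them. All 5 genes are protein coding in GENCODE release 29. A gene named in the MDA231 table was in a median of 2 terms, and 11 genes, the 5 among them, were in 14 or more.

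TNFAIP3 is a textbook target of NF-kappaB, and its start region is shown because it is the one of the 5 with the factor's consensus site in the RefSeq promoter table (GRCh38.p14), which runs from 250 bases before to 50 bases after each start. The search was made after this promoter had been looked at. The consensus NF-kappaB site was searched on both strands. The stretch is on the plus strand at chr6:137867188-137867217, and capitals mark the sites:
TNFAIP3: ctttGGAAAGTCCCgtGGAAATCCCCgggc
The 2 sites are 2 bases apart and lie 67 to 46 bases before the RefSeq start, which is at 137867259. GENCODE places the start of the gene at 137867188, so that there the sites lie inside the gene, the first of them 4 bases after its start. Of the 7 windows of the 5 genes, 1 held a match, against 11.3% of 35116 windows in all. A match is a string of letters, and these data hold no measure of binding.

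TRAF2 shared 7 terms with CASP8 and 6 with FADD. TNFAIP3 shared 5 with CASP8, 2 with FADD and 2 with TRAF2. The TRAF pair had 3 terms in common. TRAF6 had 2 in common with CASP8, 1 with FADD and 1 with TNFAIP3. Every one of the 10 pairs therefore met in at least 1 term, and no term named all 5. Of the shared terms, 8 named exactly 2 of the genes, 9 named 3 and 1 named 4, while 30 further terms named 1.

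**Figure D1:**
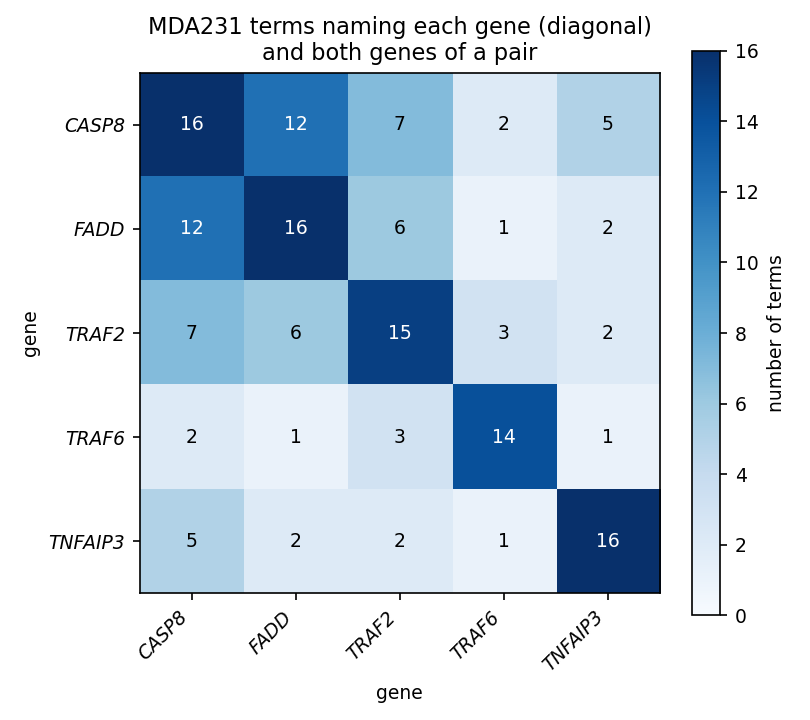
The grid gives the number of MDA231 terms that name each gene (diagonal) and both genes of a pair (other cells), and darker blue means more terms. CASP8 and FADD meet in 12 terms, whereas TRAF6 meets no other gene of the 5 in more than 3.

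The genes differed in the kinds of term that named them. Of 17 listed terms whose names concern cell death or cysteine-type endopeptidase activation, called cell death terms here, 13 named at least 1 of the 5. FADD was in 10 of these, CASP8 in 8, TRAF2 in 8 and TNFAIP3 in 2, and TRAF6 in 0. Of 16 terms on NF-kappaB, TNF and innate immune signalling, 10 named at least 1 of the 5, with CASP8 and TNFAIP3 in 5 each, FADD in 4, TRAF6 in 3 and TRAF2 in 1. Of 17 ubiquitin terms, 10 did, with TNFAIP3 in 6, TRAF6 in 4 and TRAF2 in 2, and neither CASP8 nor FADD in any. The other 264 terms of the table named at least 1 of the 5 in 15 cases. These groups were made from words in the term names after the names had been seen.

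Negative regulation of extrinsic apoptotic signaling pathway via death domain receptors was the one term with 4 of the 5 genes, namely CASP8, FADD, TRAF2 and TNFAIP3. It held 17 of 33 background genes, with a fold of 2.39 per the authors' deposited table (95% exact interval of this fold 1.39 to 3.81). Its p was 0.000558 and its adjusted p 0.135 per the authors' deposited table. Its other listed genes take in the receptors FAS, TNFRSF10A and TNFRSF10B, the ligand TNFSF10 (TRAIL), the adaptor TRADD, the caspase-8 inhibitor CFLAR and the kinase DAPK1. The parent regulation term held 11 of 17 genes, CASP8, FADD and TRAF2 among them, with a fold of 3.00 and adjusted p = 0.188 per the authors' deposited table (interval 1.497 to 5.36). It again named FAS, both TRAIL receptors, TNFSF10, TRADD and CFLAR. Death-inducing signaling complex assembly had 5 of its 8 background genes listed, CASP8, FADD, TRAF2 and TRADD among them. This is 2.89-fold with adjusted p = 0.939 per the authors' deposited table.

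Caspase activation terms repeated much of this set. Activation of cysteine-type endopeptidase activity involved in apoptotic signaling pathway had the largest fold of the 18 shared terms. The authors' deposited table lists 9 of its 13 genes at 3.21-fold, with adjusted p = 0.323 (interval 1.47 to 6.08). Besides CASP8, FADD and TRAF2, it named FAS, TNFRSF10A, TNFRSF10B, TNFSF10, TRADD and the kinase JAK2. The related term for the apoptotic process as a whole held 29 of 83 genes at 1.62-fold per the authors' deposited table (adjusted p = 0.536). It took in genes of the mitochondrial route as well, among them BAD, BID and BCL2L11, members of the BCL2 family, and AIFM1, a mitochondrial flavoprotein released in cell death. Extrinsic apoptotic signaling pathway, with CASP8 and FADD, held 17 of 42 genes at 1.87-fold per the authors' deposited table (adjusted p = 0.600), among them the keratins KRT8 and KRT18 and the cytokine genes IL33 and TGFB2.

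FADD was named without the other 4 in 2 more death terms. Extrinsic apoptotic signaling pathway via death domain receptors held 16 of 38 genes at 1.95-fold per the authors' deposited table (adjusted p = 0.569), including DAXX, a FAS-binding protein, and DEDD and DEDD2, which carry a death effector domain as FADD does. Extrinsic apoptotic signaling pathway in absence of ligand held 12 of 34 at 1.63-fold per the authors' deposited table (adjusted p = 0.967). TRAF2 alone was named in programmed necrotic cell death, whose 4 background genes were all listed, with CASP1, IRF3 and the stress kinase gene MAP3K5. Its fold of 4.63 per the authors' deposited table is the largest this list can give (adjusted p = 0.815). TRAF2 was also the sole gene of the 5 in negative regulation of neuron death (17 of 40 genes, 1.97-fold, adjusted p = 0.519 per the authors' deposited table).

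Endoplasmic reticulum stress was a second setting of TRAF2, an adaptor that binds the stress sensor ERN1 (IRE1). Response to endoplasmic reticulum stress held 31 of 75 genes at 1.91-fold per the authors' deposited table (p = 0.000232, adjusted p = 0.0761). The intrinsic apoptotic term for the same stress named TRAF2 with ERN1, the transcription factor gene DDIT3 (CHOP), CASP4, BAK1, MAP3K5 and TNFRSF10B. It held 12 of 33 genes at 1.68-fold per the authors' deposited table (adjusted p = 0.952).

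NF-kappaB terms named CASP8 on both sides. Positive regulation of I-kappaB kinase/NF-kappaB signaling named CASP8, FADD and TRAF6 among 52 of its 161 genes, at 1.496-fold, p = 0.0018 and adjusted p = 0.306 per the authors' deposited table (interval 1.12 to 1.96). Its other listed genes include the kinase subunit genes IKBKB and IKBKG, IRAK4, a kinase of interleukin-1 and Toll-like receptors, TBK1, the linear ubiquitin ligase genes RNF31 and SHARPIN, and REL, an NF-kappaB subunit. Negative regulation of the same signalling named CASP8 with TNFAIP3, among 15 of 40 genes at 1.74-fold per the authors' deposited table (adjusted p = 0.828). Its members include OTUD7B, a deubiquitinase, TNIP3, an A20-binding protein, TANK and OPTN. Regulation of tumor necrosis factor-mediated signaling pathway brought CASP8, TRAF2 and TNFAIP3 together with TRADD, CYLD, RNF31, SHARPIN, IKBKB and IKBKG, in 12 of 30 genes at 1.85-fold per the authors' deposited table (adjusted p = 0.858).

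Innate sensing terms joined other combinations. The NOD receptor signalling term named CASP8, TRAF6 and TNFAIP3 with NOD2, TAB3, CYLD and ITCH, in 10 of 25 genes at 1.85-fold per the authors' deposited table (adjusted p = 0.939). The TRIF-dependent Toll-like receptor term named CASP8 and FADD with IRF3, IRF7, TBK1 and TANK, in 11 of 28 genes at 1.82-fold per the authors' deposited table (adjusted p = 0.923). TRAF6 alone was in interleukin-1-mediated signaling pathway, with the receptor gene IL1R1, in 7 of 14 genes at 2.32-fold per the authors' deposited table (adjusted p = 0.922). Among interferon terms, FADD was in the positive regulation of type I interferon-mediated signaling (6 of 9 genes, 3.09-fold, adjusted p = 0.785 per the authors' deposited table). TNFAIP3 was in the negative regulation of type I interferon production (14 of 30, 2.16-fold, adjusted p = 0.518 per the authors' deposited table). None of the 5 was named in the type I interferon signaling pathway term itself.

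Ubiquitin chains of 2 kinds were represented. Chains linked through lysine 63 serve as scaffolds for signalling, and chains linked through lysine 48 mark proteins for the proteasome. TRAF2 and TRAF6 were both named in protein K63-linked ubiquitination (14 of 37 genes, 1.75-fold, adjusted p = 0.851 per the authors' deposited table). Both were also in protein autoubiquitination (20 of 50, 1.85-fold, interval 1.13 to 2.86, adjusted p = 0.523 per the authors' deposited table). TNFAIP3 was named in removal of K63-linked chains (11 of 23 genes, 2.21-fold, adjusted p = 0.667 per the authors' deposited table). It was named both in attachment of K48-linked chains (18 of 47, 1.77-fold, adjusted p = 0.667) and in their removal (11 of 24, 2.12-fold, adjusted p = 0.745), values of the authors' deposited table.

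TRAF6 stood in the one term of the 48 that passed an adjusted p of 0.05, cellular response to DNA damage stimulus (84 of 208 genes, 1.87-fold, adjusted p = 9.41e-06 per the authors' deposited table). That is 2.08% of the 48 terms, against 4.78% of all listed MDA231 terms. None of the 18 shared terms passed, and 14 of them had an unadjusted p under 0.05 per the authors' deposited table. For all 48 terms the number with an unadjusted p under 0.05 was 35, or 72.9%, close to the 68.2% of all listed MDA231 terms. At an adjusted p of 0.1, 3 of the 48 passed, where 7.01% of all terms did. At 0.01 and by the Bonferroni value it was 1 term, where 3.18% of all terms passed. With a false discovery rate under 5% it was 9, where 11.5% of all terms passed. Further terms of TRAF6 alone were JNK cascade (17 of 49 genes at 1.61-fold) and neural tube closure (24 of 77 at 1.44-fold), with adjusted p = 0.879 and 0.903 per the authors' deposited table.

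The folds of the terms that named the 5 genes were moderate. In the authors' deposited table the 18 shared terms ranged from 1.15-fold, for apoptotic process with 141 of 567 genes, to 3.21-fold, and had a median of 1.85. The median over all 314 terms was 1.93, and the largest fold possible, with every background gene listed, was 4.63. By gene, the median fold over its terms was 1.85 for CASP8, 1.91 for FADD, 1.91 for TRAF2, 1.55 for TRAF6 and 1.805 for TNFAIP3. The terms of TRAF6 were also the broadest, with a median of 84.5 background genes, against 31.5 for CASP8 and 30.5 over all terms. The interval of the fold lay above 1 in 9 of the 18 shared terms and took in 1 in the other 9. These intervals cover the draw of genes into the list only. They are not capped at the number of background genes in a term. Some upper ends therefore pass the largest fold possible, and the split into 9 and 9 depends on this form of interval.

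Since the 5 genes count in the folds of terms chosen for naming them, the shared terms were read again without them. Once the 5 genes were taken out of the term, the list and the background, the folds of the 18 shared terms were between 1.13 and 2.78, with a median of 1.60, and all 18 stayed above 1. Death-inducing signaling complex assembly changed the most, with 2 of 5 remaining background genes listed, a fold of 1.85. The caspase activation term of the apoptotic signaling pathway kept 6 of 10 genes, a fold of 2.78. The negative regulation term for death domain receptors kept 13 of 29, a fold of 2.08. Every term in the table is there because its p was at most 0.0973, so a fold above 1 is a property of the listing.

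**Figure D2:**
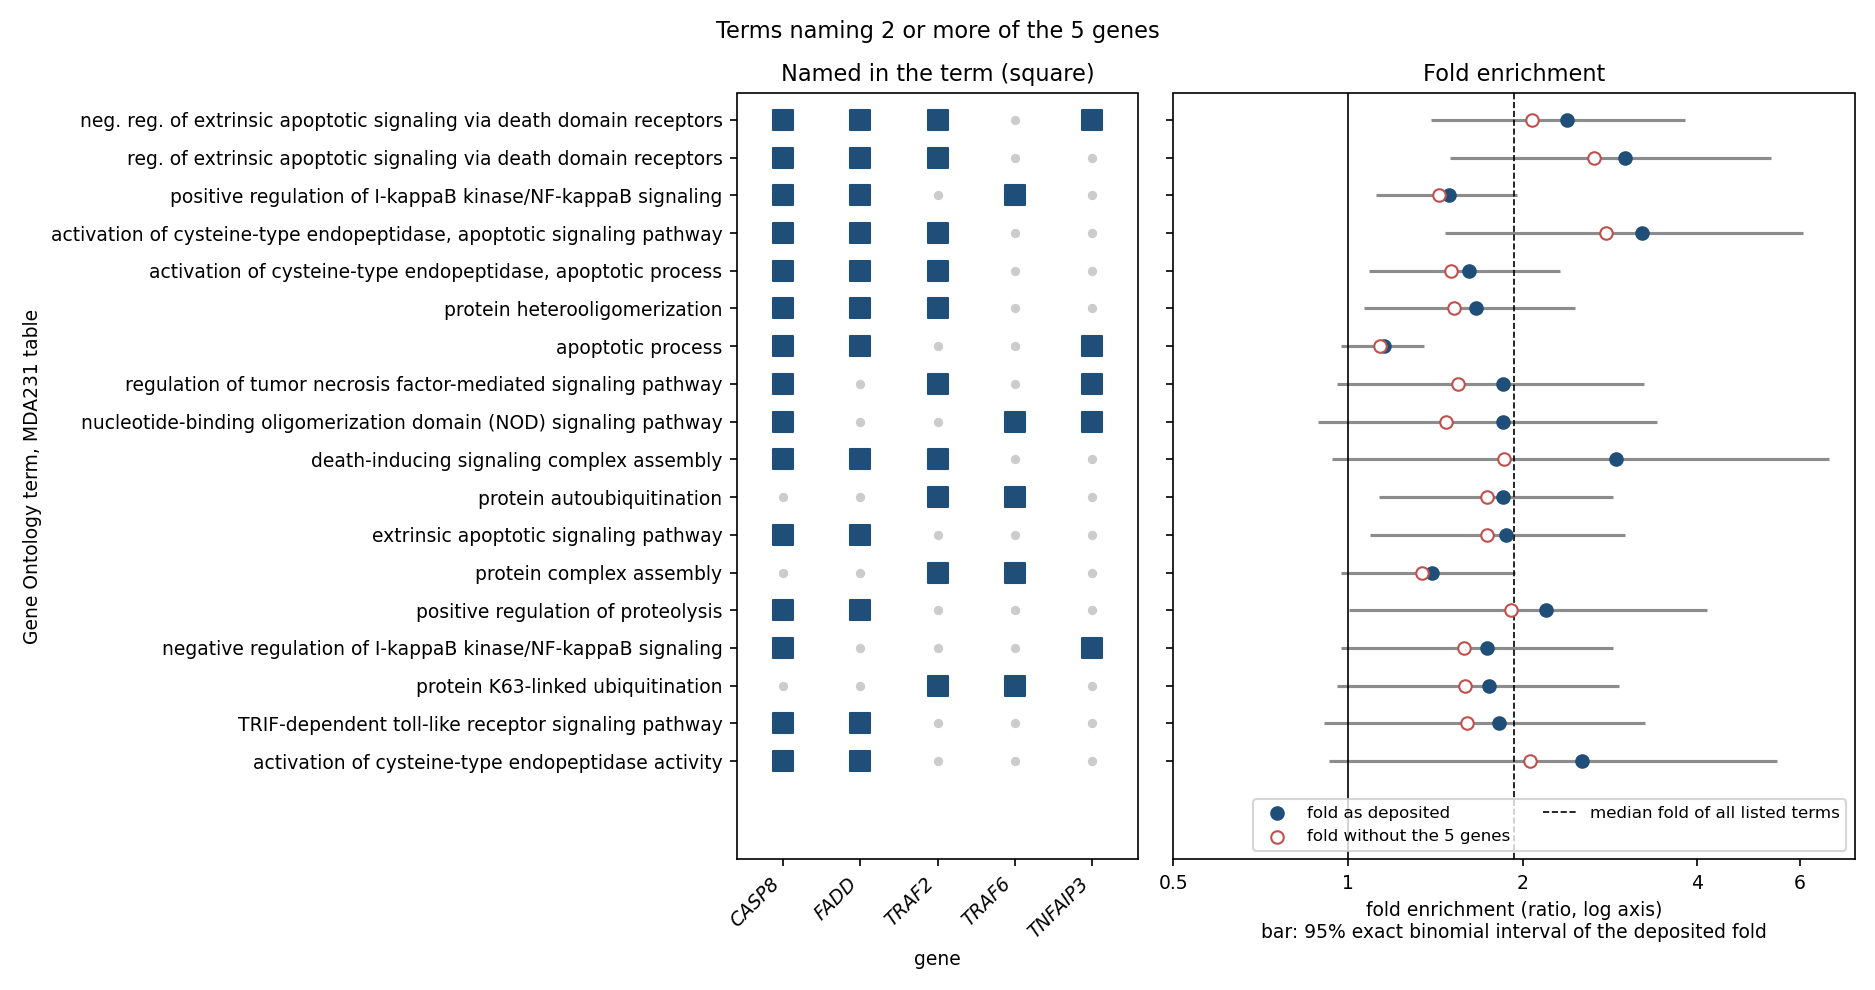
Rows are the 18 MDA231 terms that name 2 or more of the 5 genes; squares mark the genes named, and the right panel gives the fold on a log axis as deposited (filled, with its 95% exact binomial interval) and without the 5 genes (open). CASP8 fills 15 of the 18 rows, the deposited folds run from 1.15 to 3.21, and each open point lies left of its filled one and right of 1. The intervals are not capped at the largest fold possible.

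The shared terms held 294 other genes. Most were there once: 242 of them (82.3%) were in 1 shared term, 35 were in 2 and 17 in 3 or more. TRADD, the adaptor that links TNF receptor 1 to TRAF2 and FADD, was in 10 shared terms and 11 terms in all, and so hardly occurred outside them. The receptor gene FAS was in 7 shared terms of its 10, TNFRSF10A in 6 of 7, TNFRSF10B in 6 of 9 and the ligand gene TNFSF10 in 6 of 7. IKBKG, the regulatory subunit of the IKK complex, and BAD, a BCL2 family member, were in 5 shared terms of 10 each. CFLAR was in 4 of 5, IKBKB in 4 of 8 and JAK2 in 4 of 9.

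Genes in 3 shared terms each included CARD8, CASP1, CDKN2A, IRF3, ITCH and MUL1. CDKN2A, a cell cycle inhibitor gene, had 13 terms in all and ITCH, a ubiquitin ligase gene, had 11, so most of their terms lay elsewhere. The breadth of 2 terms accounts for much of the total, as 137 of the 294 genes came in only through apoptotic process or positive regulation of I-kappaB kinase/NF-kappaB signaling.

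**Figure D3:**
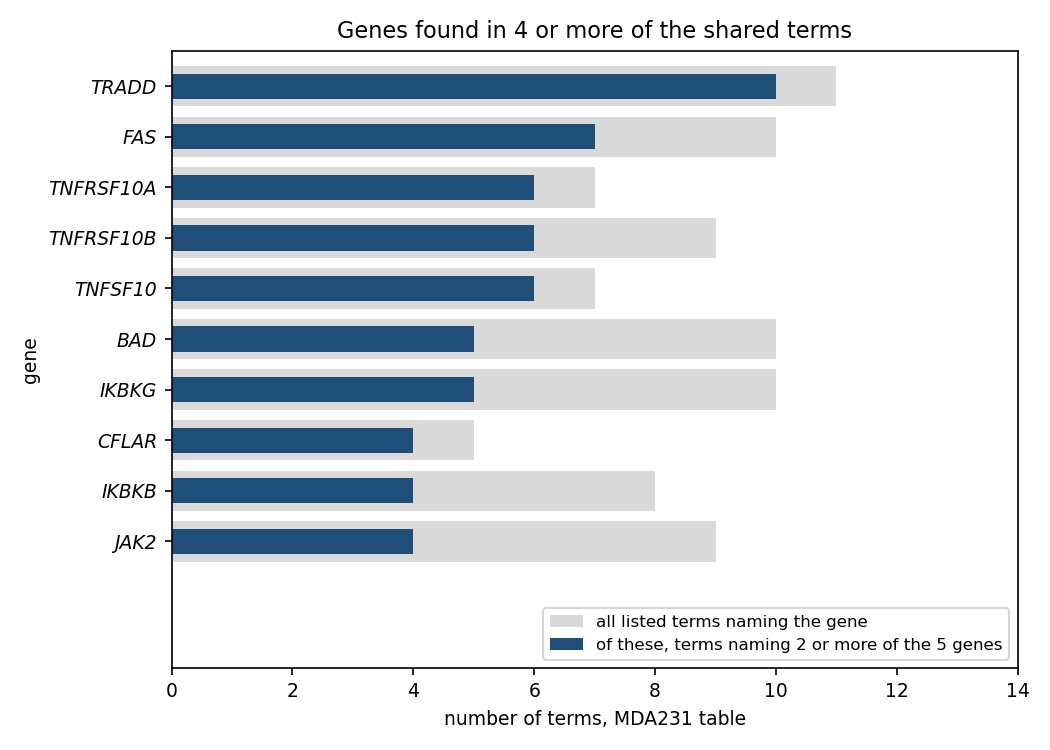
Grey bars give the number of MDA231 terms that name each of the 10 genes found in 4 or more shared terms, and blue bars the number of those that are shared terms. TRADD has 10 of its 11 terms among the shared ones, whereas JAK2 has 4 of 9.

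Likeness was measured across the 314 terms as the Jaccard index of the sets of terms that name 2 genes. Only genes with at least 3 terms in common were taken. Genes that are both listed stand together in every listed term annotated to both, so the index follows Gene Ontology annotation and its nested terms. The index and the counts of common terms hold no measure of the RNA. FADD was most like CASP8 (0.60), followed by TRADD (0.588) and TNFRSF10A (0.353). For FADD, the closest after CASP8 were TRADD (0.588) and FAS (0.444). TRAF2 was most like TRADD (0.368), TNFRSF10B (0.333) and CASP8 (0.292). TNFAIP3 had a different circle, the deubiquitinase gene CYLD (0.316), ITCH (0.286) and the deubiquitinase gene OTUD5 (0.25). TRAF6 had no close match, with the transcription factor gene ZNF148 at 0.214, the ubiquitin ligase gene WWP2 at 0.211 and IKBKG at 0.20.

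On chromosome 2, CASP8 lies next to 2 relatives. CFLAR (ENSG00000003402), an inactive homologue of caspase-8 that competes with it for FADD, ends 56755 bases before CASP8 starts, at 201176687 on GRCh38. CASP10, the other initiator caspase with death effector domains, lies between them and is not named in any MDA231 term.

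The wider pathway was read from 11 lists holding 175 genes, of which 47 (26.9%) were named in at least 1 MDA231 term, against 15.8% of the 16792 background genes. The lists were chosen with earlier results of these data known, so this share is a description. It takes in the 5 genes, which were chosen for being named, and without them 42 of 170 were named. The counts of lists that hold any of the 5 are raised in the same way. A gene in the list but in no listed term would not be named, so a gene that is not named may still have been listed. Of 17 TNF superfamily ligand genes only TNFSF10 was named, and TNF, LTA and FASLG were not. Of 24 TNF receptor genes 3 were named, FAS, TNFRSF10A and TNFRSF10B. That share is a little below the 15.8% of background genes. With only 3 genes named, the gap is too small to be read as a shortage of receptors, and it was not tested. Receptors that were not named include others with a death domain, such as TNFRSF1A and TNFRSF25. Of 13 genes for death-domain adaptors and related proteins, RIP kinases and FLIP, 6 were named. These were TRADD, FADD, DAXX, CFLAR (FLIP), DEDD and DEDD2. The kinase genes RIPK1 and RIPK3 were not named.

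Of 12 caspases 4 were named, CASP8 in 16 terms, the inflammatory caspase CASP1 in 5, CASP4 in 2 and the epidermal CASP14 in 1. The executioner CASP6 and the mitochondrial initiator CASP9 were not named. Of 13 genes of the TRAF family and its binding partners 5 were named, with TRAF2 and TRAF6 the only TRAF proteins proper, and TRAF1, TRAF3, TRAF4, TRAF5 and TRAF7 absent. The pathway list with the highest share named was ubiquitin editing, with 10 of 20 genes, TNFAIP3, TNIP2, TNIP3, ITCH, RNF31, SHARPIN, CYLD, OTUD7B, USP4 and USP21.

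Of 19 genes for kinases and adaptors leading to NF-kappaB 6 were named, IKBKG in 10 terms, MAP3K5 in 9, IKBKB in 8, TBK1 in 6, and TAB3 and IRAK4 in 2 each. Of 13 NF-kappaB subunit and inhibitor genes 2 were named, REL in 3 terms and NFKBIZ in 1, while NFKB1, RELA and NFKBIA were not. That is 15.4%, near the 15.8% of background genes. Of 18 BCL2 family and apoptosome genes 5 were named, BAD, BAK1, BCL2L11, BID and BIK. The members not named include death-promoting genes such as BAX and BBC3 as well as survival genes such as BCL2 and MCL1. Of 9 IAP genes and antagonists XIAP and HTRA2 were named, and of 17 Toll-like and interleukin-1 receptor and ligand genes IL1R1, IL1RAP and IL33. These shares are 22.2% and 17.6%, beside 15.8% of background genes. The shares of the kinase and BCL2 family lists were 31.6% and 27.8%. Of 13 epithelial markers 8 were named, KRT8 and KRT18 in shared terms among them, and of 11 astrocyte and microglia markers 0, beside the 15.8% of background genes named. The table holds human gene identifiers and no levels, so these counts do not tell the source of the RNA.

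**Figure D4:**
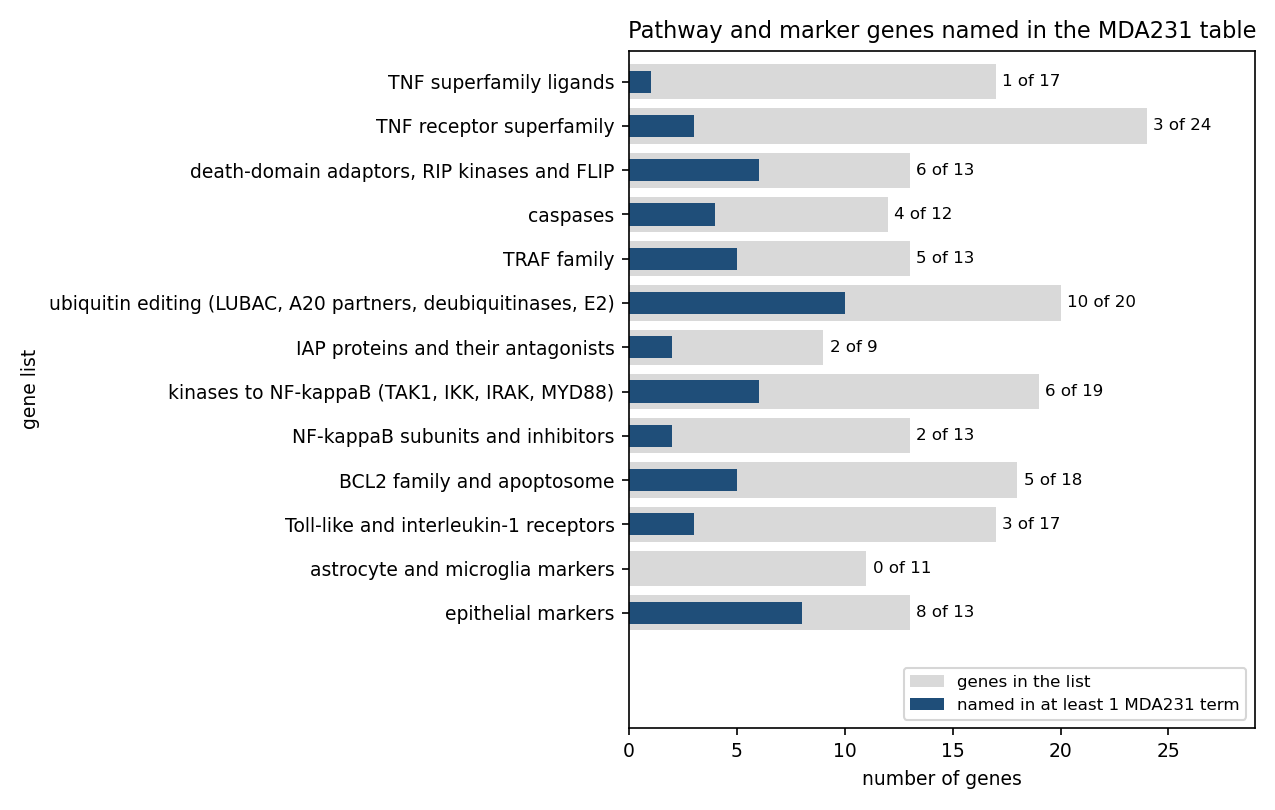
Grey bars give the number of genes in each list and blue bars the number named in at least 1 MDA231 term. Ubiquitin editing has 10 of 20 genes named, TNFAIP3 among them, and TNF superfamily ligands 1 of 17. No astrocyte or microglia marker is named.

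In the HCC1954 table none of the 5 genes was named in any of 37 terms, and 0 of the 175 pathway genes was named. That table names 30 genes in all, from a much shorter list, so the absence sets no difference between the lines.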

How the data were processed

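Each line has 1 deposited table of enriched Gene Ontology biological processes. A row holds, per the file headers, a term's listed genes, percent of submitted genes, background totals, fold enrichment, an unadjusted p-value and Bonferroni, Benjamini and false discovery rate values. The authors' fold is the ratio of the listed to the background share (3626 of 16792 genes for MDA231), and adjusted p here means their Benjamini p-value. STAR, HTSeq, GRCh38 and GRCm38 are named per the submitters' processing notes. For the enrichment tool, all versions and how genes came to be listed, the entry is: not given in the sources used here. Library depth is unknown, so precision per library cannot be given.

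Ensembl identifiers were matched to symbols (2642 of 2646 MDA231 genes). Terms naming each gene were counted, and each fold's 95% interval is Clopper-Pearson on the listed count, divided by the background share. Counting steps were checked on simulated tables. No test was run, since the genes were chosen on these counts. The 5 genes, the gene lists and the rules were chosen with earlier results of these data known. Named items were the terms naming any of the 5, the 20 genes in most shared terms with ties (52 genes, not all reported here), the 3 genes most like each and the listed members of the gene lists. CASP10 and the genes named within a term were chosen after their values were seen. The alternatives tried are given in the closing section. Python 3.11.15, SciPy 1.17.1, pandas 2.3.3 and NumPy 2.4.6 were used, with coordinates from GENCODE release 29.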

Additional observations from a re-analysis of the deposited data

How the results depend on the processing

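Of 50 values recomputed under alternative settings for 11 results, 45 stayed within 1.5 times the reported count or within the median interval of the shared terms' folds (0.989 to 3.11). The lowest fold of any listed term was 1.06, so a median of deposited folds could not fall below that interval. Staying within it therefore says little about how stable the median fold is. With only terms of an unadjusted p under 0.05, TRAF6 was named in 9 terms and not 14. With sharing set at 3 or more of the 5 genes there were 10 shared terms and not 18. Among terms of at most 50 background genes, a setting chosen after seeing the data, the shared terms held 89 other genes and not 294. The number of terms naming any of the 5 past the threshold was 1 at an adjusted p of 0.05, 3 at 0.1 (7.01% of all listed terms passed there) and 9 with the deposited false discovery rate under 5% (11.5% of all listed terms). The folds without the 5 genes were also chosen after seeing the data. No paired analysis was possible because the tables hold no value per library. Depth is unknown, and how many Gene Ontology terms each gene has in the background is not in the tables, so a count of terms cannot be set against it.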

Other observations

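Around the 5 genes stood members of larger gene families. Ring-finger and tripartite-motif ubiquitin ligase genes were taken as those whose names begin with RNF or TRIM. They made up 10 of the 20 listed genes of protein autoubiquitination and 5 of 14 of protein K63-linked ubiquitination. Both totals take in TRAF2 and TRAF6. In protein K48-linked ubiquitination they made up 7 of 18 listed genes, a total that takes in TNFAIP3. RNF115 was named in all 3 of these terms. Deubiquitinase genes whose names begin with USP or OTU were 8 of the 11 genes listed in protein K48-linked deubiquitination and 5 of 11 in protein K63-linked deubiquitination, and OTUD5, OTUD7B, USP20 and USP33 were in both.

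The single term that named CASP8 without the other 4 was proteolysis involved in cellular protein catabolic process, where 7 of 16 listed genes were lysosomal cathepsins (CTSA, CTSB, CTSH, CTSL, CTSO, CTSS and CTSV). In JNK cascade, with TRAF6, genes whose names begin with MAPK, MAP3K or MAP4K were 5 of the 17 listed. They were MAPK8, MAPK9, MAP3K5, MAP3K11 and MAP4K3, and other kinase genes such as IRAK4 and MINK1 were listed too. The fibrinogen chain genes FGB and FGG, best known as plasma proteins made in liver, were 2 of the 17 genes listed in the negative regulation term for death domain receptors. CASP8, FADD, TRAF2 and TNFAIP3 are among the 17. These families were picked out after the term members had been seen, and no level of any gene is in the tables.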
